A study of Mus musculus with 10 samples.

Results

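The comparison of Pbrm1 HOMO with WT in the CC fraction of splenic germinal center B cells set 2 HOMO CC libraries against 3 WT CC libraries, chosen by the titles of the samples. These are 5 of the 10 RNA-seq libraries of the study, and the other 5 come from the CB fraction. All animals were C57BL/6 mice aged 8 to 10 weeks. WT animals were labelled Pbrm1+/+ and HOMO animals Pbrm1-/-. B cells were collected 10 days after immunization on magnetic beads for the lectin PNA, which binds germinal center B cells. The meaning of CB and CC is not given by the labels, which also give no promoter, Cre line or exon for the Pbrm1 change. The count columns of both genotypes are headed Pbrm1AID, and the headers do not explain AID. Whether each replicate is its own animal is not given, and p-values here describe library-to-library spread that could be technical.

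Germinal center B cells alternate between a dark zone, where they divide and mutate their antibody genes, and a light zone, where they test the resulting receptor on antigen and receive help from T cells. Centroblast and centrocyte are the usual names for the cells of these zones. Pbrm1 encodes the polybromo subunit of PBAF, a SWI/SNF complex that uses ATP to move nucleosomes, and its bromodomains bind acetylated histones. Arid2, Brd7 and Phf10 encode the other subunits that set PBAF apart from related complexes, while Smarca4 encodes a shared ATPase.

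No gene passed the test between HOMO CC and WT CC. Of 16596 genes tested, 0% had an edgeR adjusted p under 0.05 in either direction, and the smallest value was 0.0564, shared by Myo7a and Pbrm1. At an unadjusted p under 0.05 there were 1440 genes higher in HOMO CC (8.68%) and 1702 lower (10.3%). In 2944 genes (17.7%) both HOMO libraries lay above all 3 WT libraries, and in 2893 (17.4%) both lay below, 35.2% of genes in all. DESeq2 called 359 genes higher (2.16%) and 457 lower (2.75%), together 4.92%, whereas limma-voom called 0. Without WT CC library 3, edgeR called 1218 genes higher (7.45%) and 1206 lower (7.37%), 2424 in all (14.8%). Without WT CB library 3, which is in neither group but enters the filter, the scaling and the estimate of the spread, the count was 122 of 16377 genes tested.

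The 5 CC libraries did not divide by genotype alone. They held between 9954006 and 27091509 counts. Over 9887 genes with a mean of at least 5 CPM (the count of a gene relative to the scaled library total), the median absolute log2 difference between WT CC libraries 1 and 2 was 0.135, and between the HOMO CC libraries it was 0.107. WT CC library 3 differed from the HOMO CC libraries by 0.147 and 0.154 on that scale, but from WT CC libraries 1 and 2 by 0.238 and 0.236. Among the 5837 genes whose groups did not overlap, it was the WT library nearest to HOMO in 3558 (61%). Pbrm1 itself stood at the WT level in WT CC library 3, as given below.

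Macrophage, erythroid, mitochondrially encoded and ribosomal RNA locus transcripts moved with this order. Sums of T cell and natural killer cell genes did not. The summed level of 24 macrophage genes was 2040, 747 and 355 CPM in the WT CC libraries, in the order 1, 2, 3, compared with 283 and 271 CPM in the HOMO CC libraries. Both HOMO libraries lay below all WT libraries in 21 of these 24 genes (87.5%, against 17.4% of all genes). The macrophage receptor genes Marco and Timd4 were at 0 in WT CC library 3. Apoe, made by macrophages and other cells, gave 212 to 356 CPM in every library, while the complement gene C1qa had WT CC levels of 67.4, 16.3 and 2.95 CPM and HOMO CC levels of 0.854 and 0.474 CPM (C1qa, Marco and Timd4 were named after their values were seen). In bulk RNA, fewer cells of a type and less RNA per cell cannot be told apart.

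Mitochondrially encoded transcripts had summed WT CC levels of 27330, 16050 and 9347 CPM and summed HOMO CC levels of 9354 and 9077 CPM. Counts over a pair of genes at the ribosomal RNA locus took 22.7%, 19.0% and 13.5% of WT CC counts and 10.8% and 11.2% of HOMO CC counts. Neutrophil genes came to 0.575, 0 and 19.5 CPM over the WT CC libraries, 150.3 CPM in HOMO CC library 2 and 18.2 CPM in HOMO CC library 3, so 1 library carried most of them. Xist, which is made from the inactive X chromosome, had WT CC levels of 708, 84.5 and 2386 CPM and HOMO CC levels of 2292 and 2746 CPM. Ddx3y, a gene of the Y chromosome, had WT CC levels of 85.93, 97.35 and 39.25 CPM and HOMO CC levels of 37.35 and 35.2 CPM. Transcripts of both genes were thus present in all 5 libraries. Summed T cell genes stood at 192, 264 and 262 CPM for WT CC, against 181 and 168 CPM for HOMO CC. The median log2 change of the 21 tested T cell genes was however 0.62, opposite in direction to the sum. Against WT CC libraries 1, 2 and 3 singly it was 0.95, 1.06 and -0.36. Without overlap 1 of them lay higher (4.76%, against 17.7% of all genes) and 2 lower (9.52%, against 17.4%). Erythroid genes gave 76.1, 19.8 and 8.71 CPM against 7.69 and 5.5 CPM, so their order followed that of the macrophage sum. Ranges of summed CPM over the 5 libraries were narrower for dendritic cell genes (41.4 to 59.97) and megakaryocyte genes (38.6 to 57.9). The same held for follicular dendritic and stromal genes (165 to 191 CPM). Only 4 of the 16 listed stromal genes were tested, and Pecam1 (77.5 to 94.4 CPM) and Cr1l (75.9 to 100.1 CPM) made up most of their sum. Of 11 listed dendritic cell genes 6 were tested, and Flt3 (29.6 to 45.4 CPM) made up most of that sum. These sums therefore do not measure how many such cells were present. Natural killer cell genes were near the floor and varied widely for their level, from 0.673 CPM in WT CC library 2 to 4.28 CPM in WT CC library 3. Naive and marginal zone B cell genes gave 1508, 1523 and 1697 CPM against 1898 and 1782 CPM. The 12 listed germinal center B cell genes, among them Bcl6, summed to between 4961 and 5923 CPM in all 5 libraries. The part that these differences play in the results below was not tested, apart from the fits named there.

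**Figure D1:**
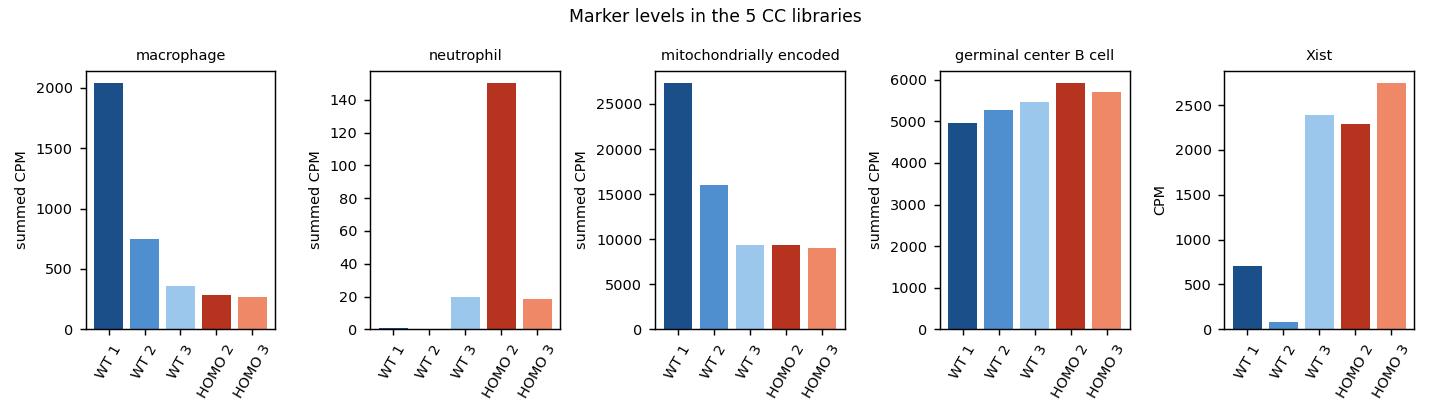
Summed CPM of listed macrophage, neutrophil, mitochondrially encoded and germinal center B cell genes, and CPM of Xist, in each of the 5 CC libraries (1 bar per library, y axis from 0). Macrophage and mitochondrially encoded sums are highest in WT library 1 and Xist is lowest in WT library 2, while WT library 3 is close to the HOMO libraries in both sums.

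The libraries also differed by the GC content of the transcripts. With genes placed in 10 equal groups by GC content, the lowest group (median 39.0%) had median log2 deviations from the mean of the 5 libraries of -0.167, -0.25 and 0.0472 for WT CC libraries 1, 2 and 3, against 0.153 and 0.221 for HOMO CC. In the highest group (median 58.9%) the order was turned round, with 0.169, 0.218 and -0.0542 for WT CC against -0.156 and -0.172 for HOMO CC. The median log2 change from WT CC to HOMO CC accordingly ran from 0.303 in the lowest group to -0.295 in the highest. Genes at an unadjusted p under 0.05 had a median GC content of 43.0% where HOMO was higher and 54.2% where it was lower, against 49.0% over all genes tested. A fit with an offset per library for GC content brought the medians of these groups to between -0.029 and 0.0102. With this offset 1068 genes were higher (6.44%) and 1507 lower (9.08%) at an unadjusted p under 0.05, and 2 passed by edgeR adjusted p, Pbrm1 and Myo7a.

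**Figure D2:**
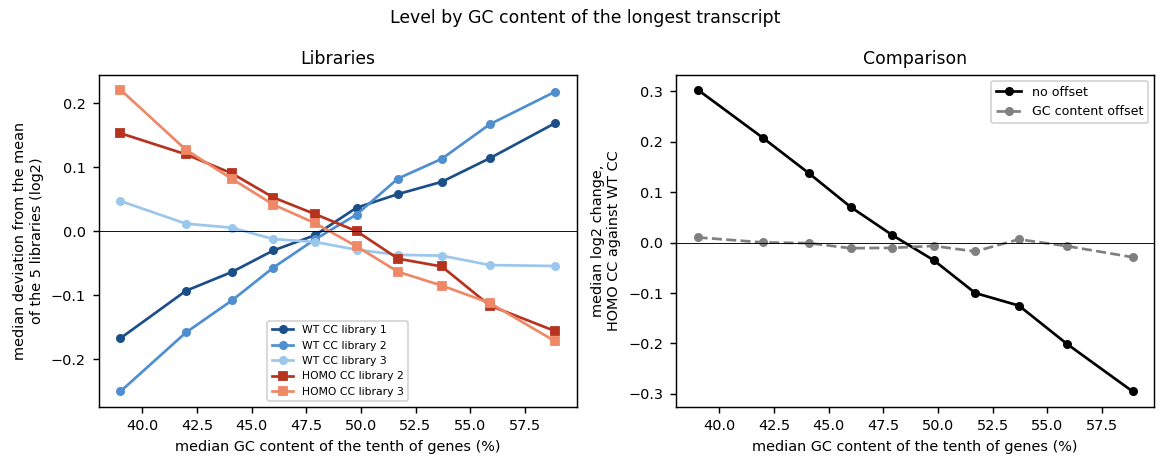
Genes with a mean of at least 5 CPM in 10 equal groups by the GC content of their longest transcript (x axis, median GC in percent). Left, the median log2 deviation of each CC library from the mean of the 5 libraries; WT libraries 1 and 2 slope up, the HOMO libraries slope down and WT library 3 lies between. Right, the median log2 change from WT CC to HOMO CC without and with the offset for GC content.

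The targeted gene Pbrm1 (ENSMUSG00000042323.17, mm10 chromosome 14, 31019138 to 31121592) measured 239, 239 and 250.3 CPM across WT CC libraries 1 to 3, against 152 and 150.4 CPM across HOMO CC libraries 2 and 3. The groups were apart, and WT CC library 3 was the farthest from HOMO. The mean went from 243 ± 6.54 CPM (SD, n = 3) to 151 ± 1.02 CPM (SD, n = 2), which is -0.68 on the log2 scale with SE 0.087 (edgeR adjusted p = 0.0564). The counts cover the whole gene, so any remaining transcript missing part of the gene still adds to them. The source of the Pbrm1 counts that remain in HOMO CC was not tested. With the GC content offset the log2 change was -0.90 (edgeR adjusted p = 0.00428). Over all alternatives the adjusted p ran from 8.7e-12 (DESeq2) to 0.55 (without HOMO CC library 3), and 12 of 32 passed.

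Arid2, the DNA-binding subunit of PBAF, was at 145, 159 and 183 CPM in WT CC and at 212 and 212 CPM in HOMO CC. Both HOMO libraries were above every WT library, and the fitted log2 difference was 0.38 with SE 0.12 (edgeR adjusted p = 0.15). Without WT CC library 3 the change was 0.49 and passed (edgeR adjusted p = 0.0177). Brd7 (log2 -0.08) and Phf10 (log2 0.11) overlapped between the groups. Smarca4 was at 458, 465 and 412 CPM in WT CC and at 380.0 and 403 CPM in HOMO CC (log2 -0.18, SE 0.12, edgeR adjusted p = 0.439), and with the GC content offset its log2 change was 0.01. Of 26 tested genes of PBAF and the related BAF complexes, 9 lay lower in HOMO CC without overlap (34.6%, against 17.4% of all genes). The targeted Pbrm1 was among these 9, and 2 lay higher (7.69%, against 17.7%). None of the 26 passed in the fit to all libraries, and their median log2 change was -0.07 against -0.03 over all genes. Without WT CC library 3, 1 passed higher and 3 lower, Pbrm1 among the latter, against 7.45% and 7.37% of all genes.

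Among expressed genes without overlap between groups, the smallest p on the lower side belonged to Myo7a, an unconventional myosin (mm10 chromosome 7, 98051060 to 98119524). Myo7a was at 36.1, 33.0 and 30.6 CPM in WT CC and at 13.7 and 13.2 CPM in HOMO CC. The HOMO libraries held less than the lowest WT library by more than the WT libraries differed from each other, and the fitted log2 difference was -1.30 with SE 0.16 (edgeR adjusted p = 0.0564). This gene passed with the GC content offset (log2 -1.10, edgeR adjusted p = 0.0159), and its adjusted p over all alternatives ran from 1.67e-09 to 0.576, with 10 of 32 passing.

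The others on the lower side also had both HOMO libraries apart from the WT libraries. Rcn1, a calcium-binding protein of the secretory pathway, was at 6.16, 4.45 and 4.99 CPM in WT CC and at 0.915 and 0.854 CPM in HOMO CC (log2 -2.55, SE 0.35). Rasal1, a GTPase-activating protein for Ras, was at 42.5, 48.9 and 38.8 CPM against 18.0 and 23.6 CPM (log2 -1.07, SE 0.15). Neither had a WT library near the HOMO level.

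Cacna1h, a T-type calcium channel subunit, was at 95.6, 95.0 and 66.7 CPM in WT CC and at 43.1 and 32.0 CPM in HOMO CC (log2 -1.19, SE 0.18), and here WT CC library 3 stood nearest to HOMO. Zfp703, a transcriptional cofactor gene, was at 14.9, 9.63 and 12.3 CPM against 4.88 and 4.27 CPM (log2 -1.42, SE 0.23). Pear1, a receptor known from platelets and endothelium, was at 38.8, 38.8 and 34.5 CPM against 22.0 and 20.4 CPM (log2 -0.82, SE 0.13). The WT levels of this receptor gene were close to each other. Phlpp1, a phosphatase that acts on AKT, was at 49.8, 52.1 and 48.2 CPM against 32.6 and 33.6 CPM (log2 -0.60, SE 0.097). The edgeR adjusted p of these 6 genes after Myo7a and Pbrm1 lay between 0.068 and 0.0895.

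On the higher side Gatm, which makes the precursor of creatine (mm10 chromosome 2, 122594467 to 122611303), had the smallest p. It was at 56.0, 63.9 and 68.7 CPM in WT CC and at 103 and 115 CPM in HOMO CC (log2 0.79, SE 0.12, edgeR adjusted p = 0.0895). Mybl1, the transcription factor A-MYB that germinal center B cells express, was at 502, 470.0 and 494 CPM against 709.8 and 712 CPM (log2 0.54, SE 0.086). Both HOMO values of Mybl1 were above all WT values, and its 3 WT values spread by far less than that gap. With the GC content offset its log2 change was 0.18 (edgeR adjusted p = 0.499).

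Taf9b, a paralog of a TFIID subunit, was at 5.13, 6.21 and 6.53 CPM against 12.1 and 13.0 CPM (log2 1.08, SE 0.17). Nxt2, an mRNA export cofactor, was at 3.37, 2.33 and 3.79 CPM against 7.2 and 8.16 CPM (log2 1.28, SE 0.23). Both genes lie on the X chromosome, and in WT CC library 3 they were nearer to the other WT libraries than to HOMO. Gpr174, also on the X chromosome, was at 12.3 CPM in that library, between the other WT libraries and HOMO. The cause of these differences was not tested. Mettl4, a methyltransferase gene, was at 37.7, 42.1 and 46.8 CPM against 67.2 and 66.1 CPM (log2 0.66, SE 0.11).

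Mfap1a, a spliceosome component, was at 24.0, 23.5 and 27.1 CPM in WT CC and at 37.5 and 37.1 CPM in HOMO CC (log2 0.59, SE 0.10). Thap2, a gene with a THAP zinc finger, was at 17.5, 19.6 and 21.6 CPM against 31.7 and 33.4 CPM (log2 0.74, SE 0.13). BE692007 was at 25.3, 32.4 and 40.6 CPM against 65.2 and 60.4 CPM (log2 0.94, SE 0.16). These genes had the edgeR adjusted p of Gatm, 0.0895.

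The 16 genes differed in GC content by side: it ranged from 35.5% to 43.9% in the 8 higher genes and from 41.8% (Pbrm1) to 60.7% in the 8 lower genes. With the GC content offset the change was smaller in 8 of 8 higher genes and in 6 of 8 lower genes, the exceptions being Pbrm1 and Rcn1 (log2 -2.55). All 16 passed with DESeq2 and with edgeR without WT CC library 3, as did 4.92% and 14.8% of all genes. The 16 were chosen for small p from the same counts, so these fits are no separate support for them. WT CC library 3 was the WT library nearest to HOMO in 12 of the 16.

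**Figure D3:**
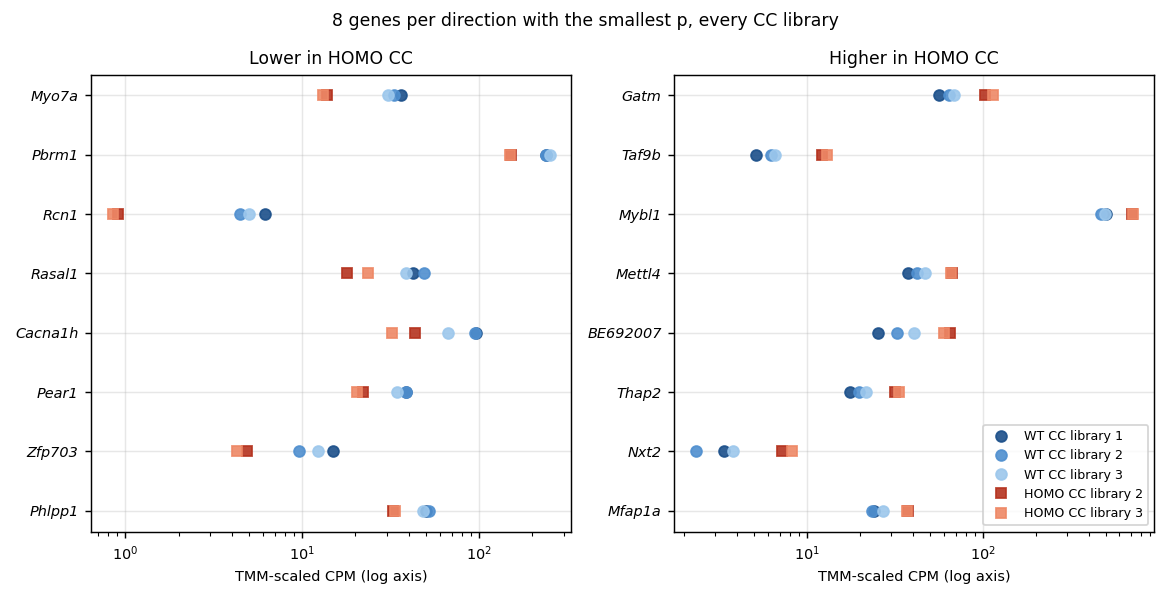
TMM-scaled CPM (log axis) of the 8 genes per direction with the smallest p, 1 point per CC library, circles for WT and squares for HOMO. In each gene both squares lie on one side of all 3 circles. WT library 3 is the WT library nearest to HOMO in 12 of the 16 genes, Cacna1h and BE692007 among them.

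No cell cycle gene of the lists passed in the fit to all libraries. Of 55 genes of the G2 and M phases, 24 were higher without overlap (43.6%, against 17.7% of all genes) and 2 lower (3.64%, against 17.4%). At an edgeR unadjusted p under 0.05, 13 of the 55 were higher and 0 lower, against 8.68% and 10.3% of all genes. The median log2 change was 0.15, and against WT CC libraries 1, 2 and 3 singly it was 0.11, 0.12 and 0.15. Knl1, a kinetochore scaffold, was at 167, 138 and 189 CPM in WT CC and at 250.4 and 261 CPM in HOMO CC (log2 0.64, SE 0.13, edgeR adjusted p = 0.101). Mad2l1, the spindle checkpoint gene, was at 100.1, 98.0 and 106 CPM against 139.6 and 137 CPM (log2 0.45, SE 0.11, edgeR adjusted p = 0.112). Both genes were higher in each HOMO library than in any WT library. The listed G2 and M genes had a median GC content of 47.4%, and with the GC content offset their median was 0.09 and 5 were higher at an unadjusted p under 0.05, a share close to the 6.44% of all genes. Without WT CC library 3 the median was 0.12, and by edgeR adjusted p 8 of the G2 and M genes passed higher and 1 lower, against 7.45% and 7.37% of all genes there.

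Of 50 genes of the G1/S transition and DNA replication, 16 were higher without overlap (32.0%, against 17.7% of all genes) and 3 lower (6.0%, against 17.4%), with a median of 0.05. Ccne2, a cyclin of S phase entry, was at 32.1, 27.6 and 35.5 CPM in WT CC and at 51.9 and 48.0 CPM in HOMO CC (log2 0.66, SE 0.14, edgeR adjusted p = 0.101). Prim1, a primase subunit, was at 84.3, 76.2 and 91.1 CPM against 118 and 117 CPM (log2 0.49, SE 0.12, edgeR adjusted p = 0.123). Here the medians against WT CC libraries 1 and 2 were near 0 (-0.01 and 2.9e-05), and the one against library 3 was 0.15.

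Dark zone genes gave 8 of 18 higher without overlap (44.4%, against 17.7% of all genes) and 1 lower (5.56%, against 17.4%). Their median was 0.12, and it was 0.13 with the GC content offset and also without WT CC library 3. Without that library 3 passed higher and 0 lower by edgeR adjusted p, against 7.45% and 7.37% of all genes. Rgs13, which dampens chemokine receptor signals in germinal center B cells, was at 82.6, 77.9 and 177 CPM in WT CC and at 197 and 189 CPM in HOMO CC (log2 0.78, SE 0.29, edgeR adjusted p = 0.206). The value of WT CC library 3 was close to those of HOMO. Lig4, the ligase of end joining, was at 23.8, 21.4 and 28.4 CPM against 28.7 and 33.2 CPM (log2 0.34, SE 0.13, edgeR adjusted p = 0.206).

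Among 32 targets of NF-kB and CD40, which carry the signal of T cell help, 14 were lower without overlap (43.8%, against 17.4% of all genes) and 4 higher (12.5%, against 17.7%). Their median was -0.20 and 0 passed. Nfkb2, which encodes the p100 subunit, was at 168, 182 and 148 CPM in WT CC and at 126 and 118 CPM in HOMO CC (log2 -0.45, SE 0.11, edgeR adjusted p = 0.123). Relb, its partner in the non-canonical pathway, was at 65.8, 68.6 and 58.9 CPM against 51.3 and 41.0 CPM (log2 -0.48, SE 0.13, edgeR adjusted p = 0.135). In both genes the HOMO libraries lay below all WT libraries. These targets had a median GC content of 53.3%, and with the GC content offset their median was -0.03, against -0.02 over all genes. Without WT CC library 3 the median was -0.20, and 4 of them passed lower and 0 higher by edgeR adjusted p, against 7.37% and 7.45% of all genes.

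Of 30 light zone activation genes, 7 were lower (23.3%, against 17.4% of all genes) and 5 higher (16.7%, against 17.7%) without overlap, shares near those of all genes. Their median was -0.21, but -0.07 with the GC content offset, 0.03 against WT CC library 1 alone and -0.0021 without WT CC library 3. Traf1, an adapter induced by CD40, was at 165, 168 and 120.5 CPM in WT CC and at 119 and 112 CPM in HOMO CC (log2 -0.39, SE 0.15, edgeR adjusted p = 0.208). Myc, the growth regulator of selected light zone cells, was level in all 5 libraries, at 67.3, 69.6 and 75.8 CPM in WT CC and at 69.8 and 68.4 CPM in HOMO CC (named after its values were seen).

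Immediate early genes had the lowest median of the process lists, -0.52. Without overlap, 9 of 29 were lower (31.0%, against 17.4% of all genes) and 0 higher (0%, against 17.7%). Egr1, induced by receptor signalling, was at 91.4, 122 and 88.4 CPM in WT CC and at 65.1 and 69.5 CPM in HOMO CC (log2 -0.58, SE 0.15, edgeR adjusted p = 0.133). Dusp4, a MAP kinase phosphatase, was at 17.9, 18.5 and 30.5 CPM against 11.3 and 11.4 CPM (log2 -0.97, SE 0.23, edgeR adjusted p = 0.117). Most of this median came from 1 WT library: the list's median difference was 0.04 against WT CC library 1, 0.04 against library 2 and -1.03 against library 3. Fos, for example, was at 18.5, 16.1 and 124 CPM in WT CC and at 20.8 and 36.0 CPM in HOMO CC (named after its values were seen). Without WT CC library 3 the median of the immediate early genes was 0.02. In CB, too, Fos was highest in WT library 3, at 105 CPM against 21.1 and 18.0 CPM in WT libraries 1 and 2.

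Other lists of stress and fate genes also depended on which WT library stood beside HOMO. The median of heat shock genes was 0.36 and 0.58 against WT CC libraries 1 and 2 and -0.25 against library 3. Memory B cell genes gave medians of 0.00 and 0.45 against WT CC libraries 1 and 2 and -0.39 against library 3, and positioning receptors gave 0.57, 0.44 and -0.13. Gpr174, a receptor for lysophosphatidylserine on the X chromosome, was the receptor with the smallest p, at 6.12, 5.38 and 12.3 CPM in WT CC and 20.8 and 20.9 CPM in HOMO CC (log2 1.41, SE 0.29, edgeR adjusted p = 0.0986). The plasma cell programme had medians of 0.26, 0.09 and -0.24 against the same libraries. Of its 27 tested genes, 4 were lower (14.8%, against 17.4% of all genes) and 2 higher (7.41%, against 17.7%) without overlap. Manf, a stress factor of the endoplasmic reticulum, was at 67.1, 60.1 and 55.0 CPM in WT CC and at 46.8 and 46.0 CPM in HOMO CC (log2 -0.39, SE 0.12, edgeR adjusted p = 0.146).

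Cr2, the complement receptor CD21 of B cells, was at 647, 624 and 612 CPM in WT CC and at 880.3 and 819 CPM in HOMO CC (log2 0.44, SE 0.094, edgeR adjusted p = 0.101). It did not overlap between the groups. Tcf7l2, a transcription factor gene also on the memory list, followed the macrophage sum instead, at 26.6, 9.01 and 1.54 CPM in WT CC and at 0.488 and 1.14 CPM in HOMO CC. Among B cell receptor signalling genes 5 of 30 were higher (16.7%, against 17.7% of all genes) and 5 lower (16.7%, against 17.4%) without overlap. Dok3, an inhibitory adapter, was at 261, 270.1 and 191 CPM against 149.9 and 153 CPM (log2 -0.67, SE 0.17, edgeR adjusted p = 0.131).

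Germinal center identity genes gave 7 of 27 higher (25.9%, against 17.7% of all genes) and 5 lower (18.5%, against 17.4%) without overlap. Their median of -0.03 matched that of all genes. Mef2c, a transcription factor of B cell activation, was at 622, 624 and 701 CPM in WT CC and at 802 and 867 CPM in HOMO CC (log2 0.36, SE 0.10, edgeR adjusted p = 0.137). Of 19 genes of MHC class II presentation, 6 were lower (31.6%, against 17.4% of all genes) and 2 higher (10.5%, against 17.7%) without overlap. March1, a ubiquitin ligase that removes MHC class II from the cell surface, was at 172, 148 and 171 CPM against 217 and 224 CPM (log2 0.43, SE 0.097, edgeR adjusted p = 0.103). Its change was opposite in sign to the list's median of -0.14. With the GC content offset the list's median was -0.03, against -0.02 over all genes, and the log2 change of March1 was 0.18 (edgeR adjusted p = 0.303).

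Interferon-stimulated genes had a median of -0.35 with 7 of 29 lower (24.1%, against 17.4% of all genes) and 1 higher (3.45%, against 17.7%) without overlap. But the WT libraries disagreed, with median differences of -0.41, 0.09 and -0.44 against libraries 1, 2 and 3. Xaf1, an apoptosis gene of this group, was at 4.19, 5.54 and 4.77 CPM in WT CC and at 2.08 and 3.04 CPM in HOMO CC (log2 -0.93, SE 0.29, edgeR adjusted p = 0.158). Cholesterol synthesis genes had a median of -0.17. Without overlap, 8 of 24 were lower (33.3%, against 17.4% of all genes) and 3 higher (12.5%, against 17.7%). Lss, the lanosterol synthase, was at 78.2, 89.9 and 49.4 CPM against 46.4 and 44.9 CPM (log2 -0.67, SE 0.21, edgeR adjusted p = 0.158). For the cholesterol synthesis genes WT CC library 3 lay level with HOMO (median -0.02).

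Growth and energy genes had medians of -0.12 (MYC targets and ribosome biogenesis), 0.01 (nuclear oxidative phosphorylation) and -0.02 (cytosolic ribosomal proteins). Without overlap, 17.7% of all genes were higher and 17.4% lower. The MYC list had 9 of 50 higher (18%) and 11 lower (22%). Oxidative phosphorylation had 22 of 74 higher (29.7%) and 8 lower (10.8%), and ribosomal proteins had 6 of 79 higher (7.59%) and 12 lower (15.2%). Rrp9, a factor of ribosomal RNA processing, was at 31.1, 29.5 and 26.2 CPM in WT CC and at 17.4 and 19.6 CPM in HOMO CC (log2 -0.65, SE 0.15, edgeR adjusted p = 0.105). Reads of ribosomal protein genes may be shared with their many pseudogene copies. For p53 targets, the BCL2 family, glycolysis and hypoxia genes and histone modifying enzymes the medians lay between -0.09 and 0.03. In the fit to all 10 libraries no gene of any process list passed by edgeR adjusted p.

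**Figure D4:**
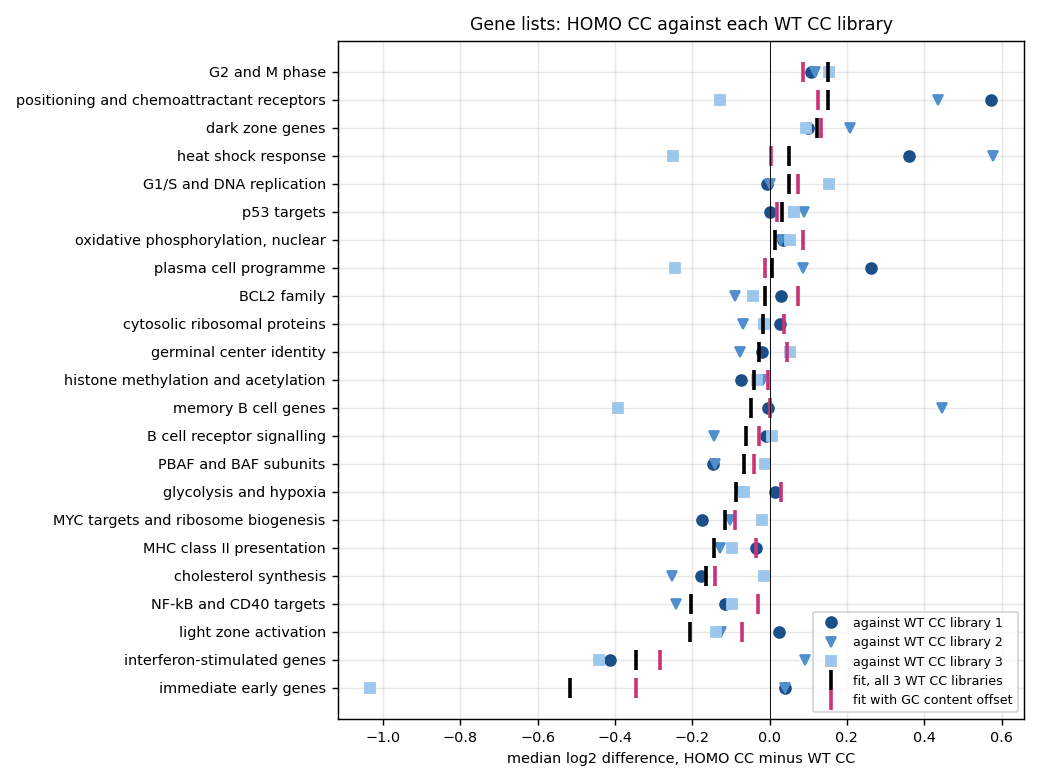
Median log2 difference between HOMO CC and WT CC over the tested genes of each list (1 row per list, log2 difference on the x axis), against each WT library singly (blue symbols), in the fit to all libraries (black bars) and in the fit with the GC content offset (magenta bars). G2 and M phase genes lie above 0 against all 3 WT libraries, while immediate early, heat shock and memory B cell genes change sign or size with the WT library.

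The same genotypes were compared in the CB fraction. Its libraries enter the common estimate of the spread. Same-numbered WT libraries of both fractions deviated together (r = 0.301, 0.426 and 0.436 across 8805 genes, which are not independent replicates). Unlike numbers also did for CB 1 with CC 2 (r = 0.278) and CB 2 with CC 1 (r = 0.163). Pairs of library 3 with library 1 or 2 gave r from -0.411 to -0.244. The comparisons of the 2 fractions are therefore not independent. There 4 of 16596 genes (0.0241%) passed, namely Pbrm1, Myo7a, Gatm and Ptpre, a receptor-type phosphatase gene. In CB and then in CC, the log2 change of these genes was -0.88 and -0.68 for Pbrm1, -1.37 and -1.30 for Myo7a, 0.94 and 0.79 for Gatm, and -1.44 and -0.72 for Ptpre. Genes of the G2 and M phases had a median of -0.05 in CB against 0.15 in CC, and immediate early genes had medians of -0.49 and -0.52.

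The difference between the fractions was tested as the interaction of genotype and fraction, and 0 genes passed by edgeR, limma-voom or DESeq2. At an unadjusted p under 0.05 edgeR gave 434 genes (2.62%). Lgr5, a receptor for R-spondins, was among the 4 smallest p. In CC it was at 2.92, 3.63 and 3.51 CPM in WT and at 6.04 and 5.41 CPM in HOMO, and in CB it was at 26.0, 25.3 and 22.8 CPM in WT and at 23.5 and 25.2 CPM in HOMO. Its HOMO libraries were thus higher than WT in CC and within the WT range in CB. The other 3 were Tspan9, Tmem205 and Gm26648, which reached at most 1.48 CPM in any library. Both HOMO CC libraries held 0 reads of Tspan9 and Gm26648.

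**Figure D5:**
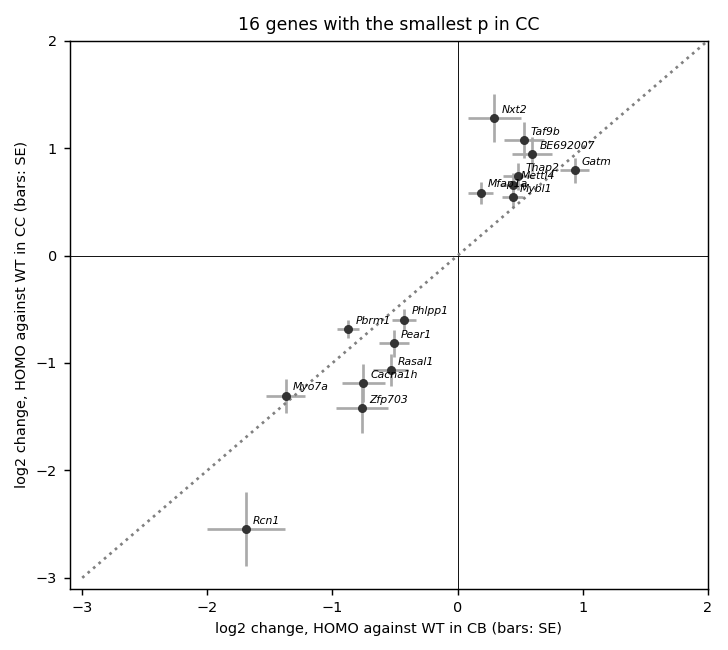
Log2 change from WT to HOMO in CB (x axis) and in CC (y axis) of the 16 genes with the smallest p in CC, with bars of 1 SE and a dotted line of equal change. The points are a description, since deviations of WT libraries were correlated between the fractions, and the interaction passed for none of the 16.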

How the data were processed

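RNA from 10 libraries of PNA-enriched splenic germinal center B cells was sequenced after ribosomal RNA depletion, per the labels. The authors deposited raw read counts in whole numbers for 55421 genes and a length in bases per gene, which was not used. FastQC, STAR, Subread, featureCounts, R 4.2.1 and mm10 are named in the submitters' processing notes. Strand, multi-mapping and annotation settings are not stated in any source used, and overlapping genes and close copies have uncertain counts. Symbols and coordinates came from GENCODE M21, which gave the deposited coordinates for 54673 of 54673 identifiers found with their version. GC content is that of the longest GENCODE transcript.

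Groups were taken from the titles. HOMO columns carry the numbers 2 and 3 and the titles 1 and 2, so these columns were assigned by group only. Chi-square statistics per degree of freedom between libraries of a CC group were 4.14 to 80.7, so all differed by more than sampling noise. Genes were filtered with filterByExpr (minimum count 10, minimum total 15), scaled with TMM, and fitted to all 10 libraries with edgeR 4.0.16 (robust quasi-likelihood, R 4.3.3), with Benjamini-Hochberg adjustment at 0.05. CPM values are TMM-scaled, and single-library differences use log2(CPM + 0.5). The common biological coefficient of variation was 23.1%. Alternatives used limma 3.58.1 and DESeq2 1.42.0. The steps were tested on simulated counts.

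The members and the 35 gene lists were chosen with earlier results of these data known. The text names the PBAF genes above, 8 genes per direction with the smallest p among those of at least 5 CPM without overlap and with a proper symbol (since none passed), up to 2 per list, and the 4 smallest interaction p. Same-numbered WT CB and CC libraries deviated together (r = 0.301, 0.426 and 0.436 over 8805 genes), which is a result of the data. Unlike numbers also did for CB 1 with CC 2 (r = 0.278) and CB 2 with CC 1 (r = 0.163). A random block by number was fitted (correlation 0.307).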

Additional observations from a re-analysis of the deposited data

How the results depend on the processing

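The count of 0 genes in CC was also 0 with RLE factors, with only the CC libraries, against a fold of 1.2, without WT CC libraries 1 and 2, with the GC content offset in either of the smaller sets of libraries, and with limma-voom. It was 1 with upper-quartile factors, 1314 with no low-count filter, 2 with a stricter filter, 2 with the GC content offset, 1 with the macrophage sum as a covariate, 3 with Xist as a covariate, 816 with DESeq2 and 5035 without both libraries of WT number 3. Leaving out 1 library at a time gave 0 to 2424, and the same with the GC content offset gave 0 to 1582, the highest in both cases without WT CC library 3 and the other counts above 1 being 122 without WT CB library 3. The GC content offset with the macrophage sum gave 3. The combinations with the GC content offset were chosen after seeing the data. The limma-voom fit with the WT number as replicate block gave 0 genes in CC, 16 in CB and 0 for the interaction. In CB, where 4 genes passed, the count was 590 with no filter, 0 with only the CB libraries, 2 against a fold of 1.2, 9 with the macrophage sum, 2 with Xist, 1 without WT CC libraries 1 and 2, 4895 without WT number 3, 7 with limma-voom, 277 with DESeq2, 2 and 21 with the GC content offset together with the omission of WT CC libraries 1 and 2 or the macrophage sum, 0 to 1986 without 1 library and 2 to 8 without 1 CC library with the offset. The interaction gave 154 with no filter, 1445 without WT number 3, 0 to 36 without 1 library and 0 to 28 with the offset. The cause of these differences was not tested.

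Signs were kept in all but 34 of 2105 values of named genes over alternatives. Most of these genes were chosen for a small p in the same libraries, and the alternatives share most of their counts. The kept signs are therefore no separate support. Brd7 was at 0.15 with the macrophage sum, 0.057 with Xist, 0.17 without WT CC libraries 1 and 2, 0.14 with the offset there and 0.089 with the offset and the macrophage sum. With the offset Phf10 was at -0.094, at -0.087 with only the CC libraries, at -0.021, -0.034 and -0.22 without WT CC libraries 1, 2 and 3 in turn, and at -0.14 and -0.049 without HOMO CC libraries 2 and 3. With the offset Smarca4 was at 0.0090, at 0.018 with only the CC libraries, at 0.017, 0.0027 and 0.0046 without WT CC libraries 1, 2 and 3, at 0.057 without HOMO CC library 2, at 0.016 without WT CC libraries 1 and 2 together and at 0.023 with the macrophage sum. With the offset Chordc1 was at -0.097, at -0.092 with only the CC libraries, at -0.069, -0.078 and -0.17 without WT CC libraries 1, 2 and 3, and at -0.22 without HOMO CC library 2. With the offset and without WT CC libraries 1 and 2, Rgs13 was at -0.071, Bcl2l11 at -0.0056 and Hspa4l at -0.034, and with the offset and the macrophage sum Ptprc was at -0.014, Bcl2l11 at -0.029 and Arhgef1 at 0.0020. With the offset Ccng1 was at -0.012 without WT CC library 2 and Polk at -0.10 without HOMO CC library 2. The comparison rests on 2 HOMO and 3 WT libraries, with 9954006 counts in the shallowest, which limits its precision.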
